A study of Mus musculus with 12 samples.

Results

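Dendritic cell marker genes are described here in whole mouse liver: Itgax, Irf8, Irf4, Batf3, Xcr1, Clec9a, Flt3, Zbtb46, Siglech and Cd209a, 10 of the 55401 genes in the deposited table, each found as 1 row by its symbol. Acetaminophen, a painkiller toxic to hepatocytes at high doses, was given to mice that lack the iron sensor FBXL5 in cells expressing CD11c and to mice that do not, and livers were sequenced in 12 libraries. The 4 groups of 3 libraries were livers of Cd11c-Cre/Fbxl5F/F mice (FBXL5ΔDC) at 6 h after acetaminophen, livers of Fbxl5F/F control mice at 6 h, untreated FBXL5ΔDC livers (0 h) and untreated control livers (0 h). All mice were male, aged 7 to 10 weeks, and all carried loxP-flanked Fbxl5 alleles, which only the FBXL5ΔDC mice combine with Cre made from the Cd11c (Itgax) promoter. That promoter is active mainly in dendritic cells, but also in some macrophages. Acetaminophen was injected at 300 or 500 mg/kg per the labels, which do not tie either dose to these livers, and after a 16 h fast, which they do not extend to untreated mice. Nothing in the labels described litters or cages, so p-values measure the spread between these libraries only.

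Dendritic cells take up antigen and present it to T cells, and form a small part of the non-parenchymal cells of the liver. Conventional type 1 cells (cDC1) depend on the transcription factors IRF8 and BATF3 and carry the chemokine receptor XCR1 and the dead-cell receptor CLEC9A. Conventional type 2 cells (cDC2) depend on IRF4 and often carry the lectin CD209a, and plasmacytoid cells carry Siglec-H. The receptor FLT3 drives the growth of dendritic cell precursors, ZBTB46 is a transcriptional repressor made in the conventional lineage, and CD11c is a complement receptor chain shared with some macrophages. IRF8 is also made by macrophages and B cells and is induced by interferon gamma, and ZBTB46 is also made by endothelial cells.

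The sequence just before the transcription start is shown for Irf8, the marker gene with called differences, and for Itgax, the gene whose promoter names the Cre line. The 250 bases before the RefSeq start site are given for GRCm38.p6, on the plus strand, as chr8:120736108-120736357 for Irf8 and chr7:128129300-128129549 for Itgax. The Itgax stretch is the endogenous one, and the extent of the transgene promoter is not stated in the labels. Capitals would mark a match to 1 of 3 motifs of factors that act in dendritic cells, searched on both strands, and neither stretch held one.
Irf8: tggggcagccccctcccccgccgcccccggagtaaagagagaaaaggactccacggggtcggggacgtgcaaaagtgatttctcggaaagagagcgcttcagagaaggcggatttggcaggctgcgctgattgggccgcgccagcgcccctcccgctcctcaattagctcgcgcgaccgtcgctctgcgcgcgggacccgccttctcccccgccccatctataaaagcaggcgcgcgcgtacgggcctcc
Itgax: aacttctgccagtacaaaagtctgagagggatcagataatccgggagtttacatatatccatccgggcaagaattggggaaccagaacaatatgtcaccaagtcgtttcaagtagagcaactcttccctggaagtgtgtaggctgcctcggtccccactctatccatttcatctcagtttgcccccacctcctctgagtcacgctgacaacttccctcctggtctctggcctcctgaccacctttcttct
The motifs were GAGGAA, the core of PU.1 sites, found in 23.3% of 32851 mouse promoter stretches of 250 bases, the interferon-stimulated response element core (2.98%) and the composite AP-1 and IRF element (0.119%). RefSeq had a promoter entry for all 10 markers. GAGGAA was found on the plus strand in that of Batf3, at 153 to 148 bases before the RefSeq start. It was found on the other strand in that of Irf4, at 19 to 14 bases before the RefSeq start. The RefSeq start lies 567 bases from the GENCODE start for Batf3 and 35038 bases for Zbtb46. Both of these windows fall within the gene as GENCODE draws it, and not before it. The absence of a match says only that these letters are not in this window. A match is a run of letters and not a measured binding site.

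Most of these genes were barely detected in whole liver. Alb was the most abundant gene in every library, and total counts ran from 67.2 M to 72.5 M. The 10 markers together held 0.00200% to 0.00290% of the counts in FBXL5ΔDC livers at 6 h, 0.00111% to 0.00183% in control livers at 6 h, 0.000837% to 0.00104% in FBXL5ΔDC livers at 0 h and 0.000946% to 0.00130% in control livers at 0 h. A group mean under 12 counts per library was taken as under the detection floor. Low values in the table piled up at multiples of 4: over the 12 libraries, 4942 values were 3, 8259 were 4 and 3416 were 5. A value of 12 counts may thus stand for as few as 3 fragments. In bulk tissue, fewer cells of a type and less RNA per cell cannot be told apart. Irf8, Batf3, Zbtb46 and Clec9a had means above the floor in all 4 groups. Itgax was under the floor in both untreated groups, Siglech in untreated FBXL5ΔDC livers and Xcr1 in treated FBXL5ΔDC livers. Flt3, Cd209a and Irf4 were under the floor in all 4 groups. In single libraries, 47 of the 120 values were under 12 counts and 28 were 0. Irf8, Zbtb46 and Clec9a reached 12 counts in every library and Batf3 in all but 1, while values were under 12 counts in 6 libraries for Itgax, 5 for Siglech, 8 for Xcr1, 7 for Flt3, 9 for Cd209a and 11 for Irf4.

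**Figure D1:**
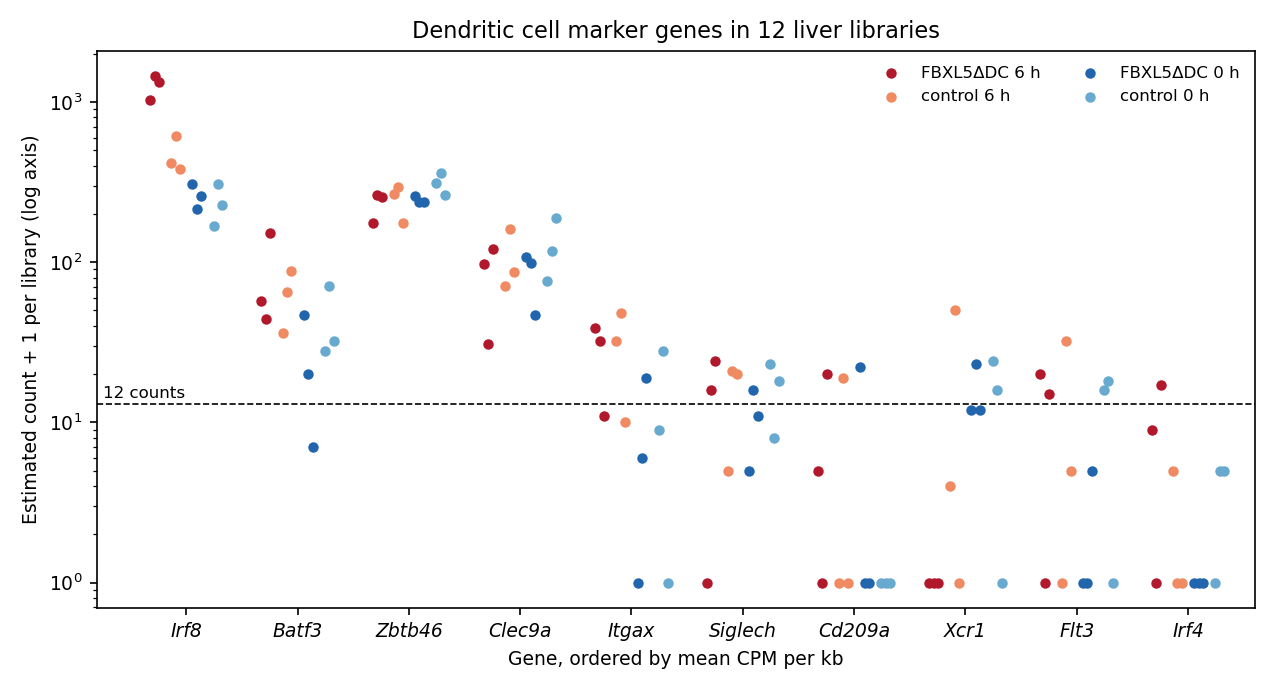
Estimated count plus 1 per library (log axis) for the 10 marker genes, ordered by mean CPM per kb, with 1 point per library coloured by group and a dashed line at 12 counts. Irf8, Zbtb46 and Clec9a lie above the line in every library, and all 3 treated FBXL5ΔDC libraries are at 0 for Xcr1.

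Levels between genes were compared as CPM (counts scaled to a common library size with TMM factors) per kilobase of exon, over all 12 libraries. Irf8 was highest at 1.17 ± 1.04 CPM per kb (mean ± SD over 12 libraries). Batf3 at 0.475 ± 0.358, Zbtb46 at 0.428 ± 0.0735 and Clec9a at 0.421 ± 0.171 CPM per kb did not differ beyond their spread. Every library had more Zbtb46 and more Clec9a per kb than any library had Itgax, which averaged 0.0551 ± 0.0454 CPM per kb. Below Itgax came Siglech (0.0546 ± 0.0327), Cd209a (0.0456 ± 0.0764), Xcr1 (0.0337 ± 0.0423), Flt3 (0.0194 ± 0.0221) and Irf4 (0.00886 ± 0.0148 CPM per kb), with overlapping spreads. Markers of the same subset thus stood at different levels: among cDC1 genes, Batf3 and Clec9a were detected in every group, while Xcr1 lay near the floor.

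Irf8 (ENSMUSG00000041515.10, GRCm38 chromosome 8 from 120736358 to 120756694) was the only marker with a called difference in the edgeR fit of all 4 groups, and its highest level was in treated FBXL5ΔDC livers. Its counts there were 1033, 1450 and 1341, which is 15.9, 23.8 and 19.98 CPM. In treated control livers they were 412, 616 and 381, or 5.32, 7.61 and 5.73 CPM. Untreated FBXL5ΔDC livers had 4.40, 3.16 and 3.81 CPM of Irf8, and untreated control livers 2.23, 4.16 and 3.05 CPM. All 3 treated FBXL5ΔDC libraries lay above every other library, the treated control libraries lay above every untreated one, and the untreated genotypes overlapped. Treated libraries lay above all untreated ones for 24.2% of tested genes in FBXL5ΔDC livers and 15.3% in control livers. At 6 h, FBXL5ΔDC libraries lay above all control libraries for 9.74% of tested genes. No marker separated the untreated genotypes, where FBXL5ΔDC libraries lay above all control libraries for 5.94% of tested genes and below them for 5.80%. Group means were 19.9 ± 3.96 CPM and 6.22 ± 1.22 CPM at 6 h in FBXL5ΔDC and control livers, and 3.79 ± 0.621 CPM and 3.15 ± 0.971 CPM at 0 h (SD, n = 3 each). Irf8 made up 68.9% to 79.2% of the summed marker CPM in treated FBXL5ΔDC livers, 47.5% to 50.1% in treated control livers, 35.2% to 43.6% in untreated FBXL5ΔDC livers and 25.8% to 33.2% in untreated control livers.

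**Figure D2:**
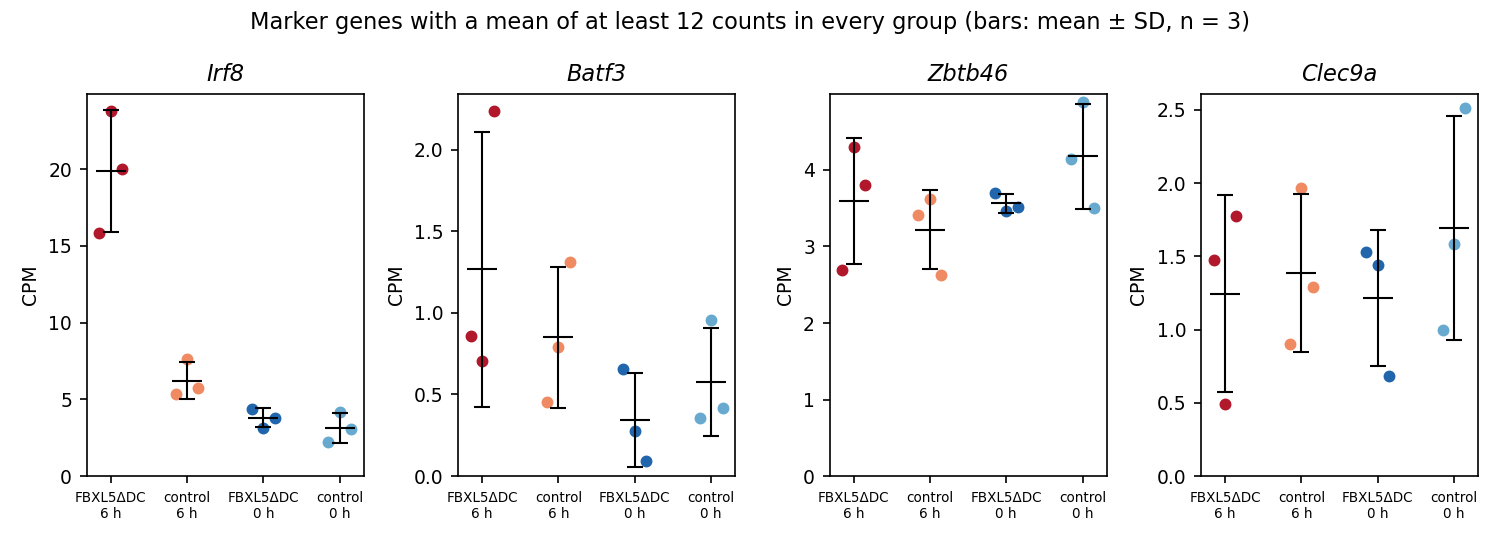
CPM of Irf8, Batf3, Zbtb46 and Clec9a (linear axes from 0), with 1 point per library and bars for mean ± SD of 3 libraries, treated groups left of untreated ones. Irf8 averages 19.9 CPM in treated FBXL5ΔDC livers against 6.22 CPM in treated control livers, while the groups overlap for Zbtb46 and Clec9a.

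In FBXL5ΔDC livers, Irf8 rose 5.24-fold by 6 h (log2 2.39, SE 0.26, edgeR adjusted p = 1.05e-04). It was the 1 marker of the 9 tested that was called higher, in a comparison where 30.1% of all 17585 tested genes were called, 15.0% higher and 15.1% lower. In control livers Irf8 rose 1.98-fold (log2 0.98, SE 0.25, edgeR adjusted p = 0.0288), again the 1 marker called, where 6.36% of tested genes were higher and 4.20% lower (1118 and 739 genes, against 911 and 938 with upper quartile scaling). This rise in control livers was not called when control replicate 1 or 3 at 0 h or control replicate 2 at 6 h was left out (edgeR adjusted p = 0.106, 0.0920 and 0.0740), or when only these groups were fitted (adjusted p = 0.123). Over all alternatives its edgeR or DESeq2 adjusted p ran from 0.00442 to 0.123.

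Between genotypes, Irf8 at 6 h was 3.19-fold higher in FBXL5ΔDC livers than in control livers (log2 1.68, SE 0.26, edgeR adjusted p = 0.00553), the 1 marker called in a comparison with 5.86% of tested genes called, 1.35% higher and 4.51% lower. The call was lost in a fit of these groups alone, where edgeR gave an adjusted p of 0.0694 (range over alternatives 6.01e-08 to 0.0694). At 0 h the log2 difference was 0.27 with a 95% interval of −0.28 to 0.82 (edgeR adjusted p = 1). None of the markers was called at 0 h by edgeR or by DESeq2, and none had an unadjusted edgeR p under 0.05. Among all genes that comparison had 0% called by edgeR, 465 genes at an unadjusted p under 0.05, and 14 called by DESeq2. The response of Irf8 in FBXL5ΔDC livers was larger than in control livers by 1.41 on the log2 scale (95% interval 0.63 to 2.18), but this difference did not pass the threshold over all genes (edgeR adjusted p = 0.107), where 0.290% of tested genes were called, 0.0341% as a larger response in FBXL5ΔDC livers. It was called by DESeq2 (adjusted p = 0.0108) and by edgeR without control replicate 3 at 6 h (adjusted p = 0.0259), and its adjusted p ran to 0.260 over the alternatives. Both of those fits called many more genes for this difference. DESeq2 called 213 higher and 476 lower of 17585, and edgeR without that library 1103 higher and 1430 lower of 18464. The comparisons share libraries, so the treated FBXL5ΔDC livers enter 3 of these values.

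**Figure D3:**
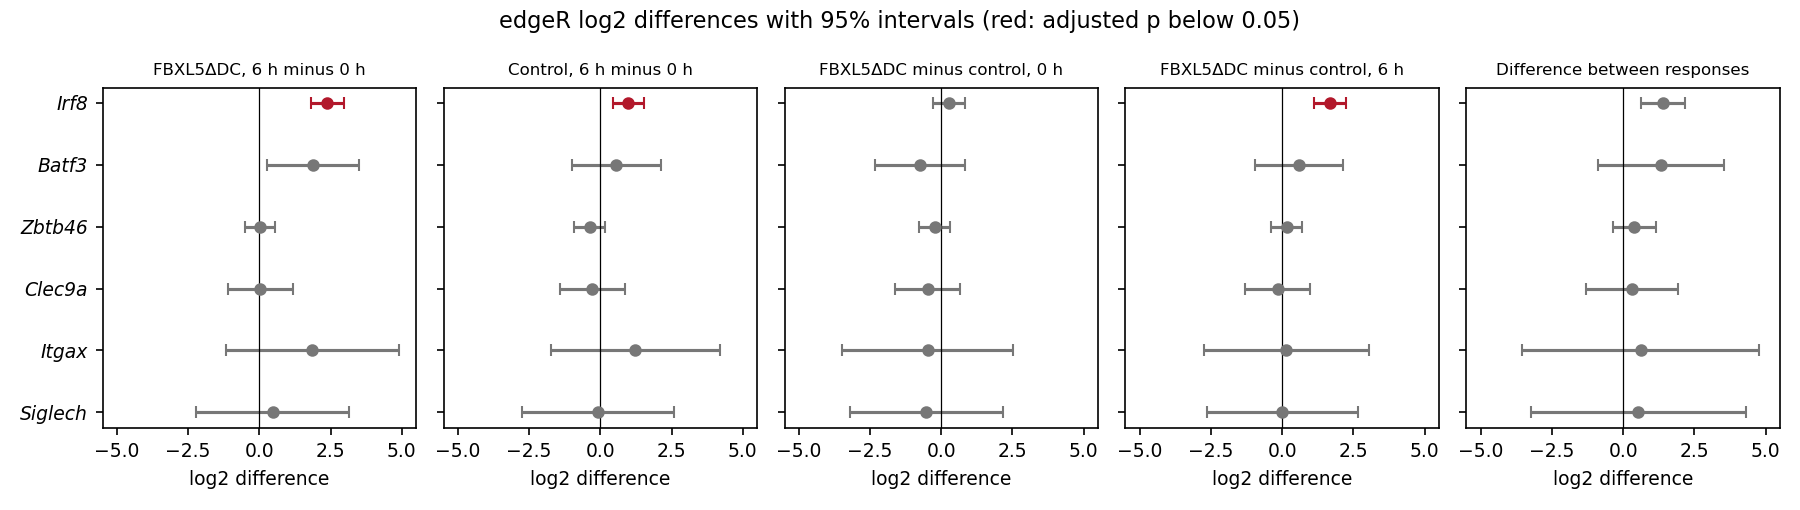
edgeR log2 differences (points) with 95% intervals (bars) for Irf8, Batf3, Zbtb46, Clec9a, Itgax and Siglech in 5 comparisons, red where the adjusted p is below 0.05. Irf8 is red in 3 panels, and the intervals of Itgax and Siglech span more than 5 log2 units.

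Irf8 rose along the main axis of variation from untreated to treated control to treated FBXL5ΔDC livers, except in treated control replicate 3. That axis, the first principal component of all tested genes, held 39.8% of the variance. Treated FBXL5ΔDC libraries lay at 97.7, 107.4 and 103.6 on it, treated control replicates 1 and 2 at −9.46 and −8.18, and untreated libraries between −67.02 and −57.5. Treated control replicate 3 lay at 86.8, next to the treated FBXL5ΔDC libraries, but its Irf8 was 5.73 CPM, between the other treated control livers at 5.32 and 7.61 CPM. Without that library, Irf8 remained called between genotypes at 6 h. That fit called 1873 genes higher and 2376 lower of 18464, against 238 and 793 of 17585 with all libraries. A gene called with all libraries was thus likely to stay called, and the call adds no support.

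**Figure D4:**
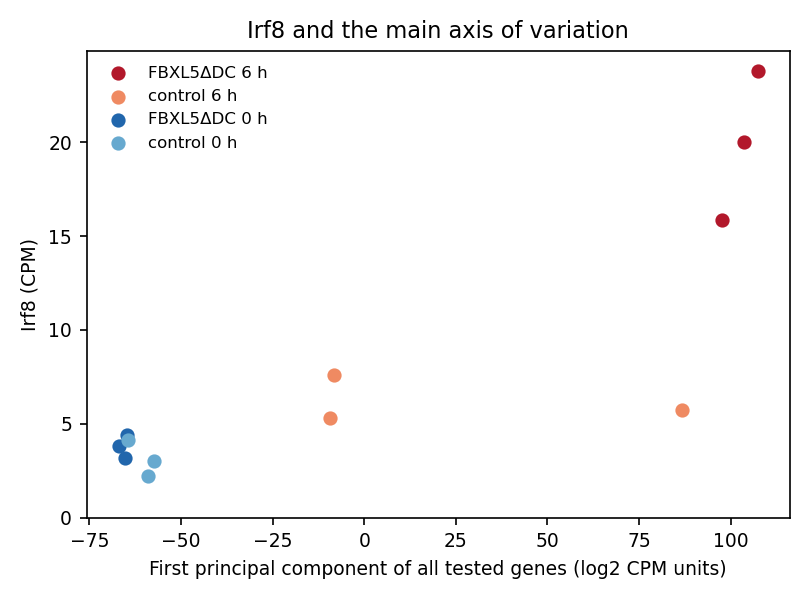
Irf8 in CPM (vertical axis) against the first principal component of all tested genes (horizontal axis), 1 point per library coloured by group. Treated control replicate 3 lies at 86.8 on the component with 5.73 CPM of Irf8, and the 3 treated FBXL5ΔDC libraries lie at 97.7 to 107.4 with 15.9 to 23.8 CPM.

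IRF8 is made by other immune cells, whose markers were read beside it. For Kupffer cells, the resident macrophages of the liver, all 12 markers were in the table and none was at 0 throughout. Their summed level was 262 to 440 CPM in treated FBXL5ΔDC livers, 221 to 272 CPM in treated control livers, 199 to 258 CPM in untreated FBXL5ΔDC livers and 169 to 203 CPM in untreated control livers. Of the 12, 5 rose in FBXL5ΔDC livers and 1 in control livers, and 2 were higher in FBXL5ΔDC than in control livers at 6 h: C1qb, a complement chain (41.5 ± 6.72 against 23.8 ± 4.95 CPM, edgeR adjusted p = 0.0253), and the haemoglobin scavenger gene Cd163 (23.6 ± 3.53 against 12.5 ± 4.05 CPM, edgeR adjusted p = 0.0455). Among all tested genes, 15.0% rose in FBXL5ΔDC livers and 6.36% in control livers. At 6 h, 1.35% were higher in FBXL5ΔDC than in control livers. The count of 2 was 0 without control replicate 1 or 2 or FBXL5ΔDC replicate 1 or 3 at 6 h. It was 1 without any 1 of the 6 untreated libraries. Without control replicate 3 at 6 h it was 4, in a fit where 1873 of 18464 tested genes were higher. A fit of the groups compared alone gave 0, and DESeq2 gave 4, where it called 730 of 17585 tested genes higher. The most abundant of the 12, the lectin gene Clec4f and Cd5l, an apoptosis inhibitor of macrophages, had 68.3 ± 14.7 and 64.3 ± 23.5 CPM in treated FBXL5ΔDC livers against 46.4 ± 5.46 and 46.2 ± 11.4 CPM in treated control livers, and neither was called. The count of 5 became 2 without FBXL5ΔDC replicate 1 at 6 h and 3 without FBXL5ΔDC replicate 3 at 0 h. The count of 1 in control livers became 0 without any 1 of the 3 untreated control libraries, FBXL5ΔDC replicate 3 at 0 h or control replicate 1 at 6 h. It became 2 without control replicate 3 or FBXL5ΔDC replicate 2 at 6 h, and 0 in a fit of the control groups alone.

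B cell and plasma cell markers had no called gene in any comparison: their 12 genes, 4 of which averaged under 12 counts over the 12 libraries, summed to 2.94 to 5.69 and 3.33 to 7.81 CPM at 6 h in FBXL5ΔDC and control livers, and to 3.98 to 7.10 and 3.08 to 6.07 CPM at 0 h. Their most abundant gene, the immunoglobulin gene Ighm, had 1.91 ± 0.510 CPM in treated FBXL5ΔDC and 2.19 ± 1.16 CPM in treated control livers. Of 12 monocyte markers, 0 were called between genotypes at 6 h by edgeR or DESeq2. Without control replicate 3, 3 were called higher in FBXL5ΔDC livers, as were 1873 of 18464 tested genes. Over all tested genes, 15.0% rose and 15.1% fell in FBXL5ΔDC livers, and 6.36% rose and 4.20% fell in control livers. In each response 3 of the 12 monocyte markers rose and 1 fell. With 1 library left out, the count that rose was 3 in every fit of the FBXL5ΔDC response, 1 in the control response without control replicate 1 at 0 h and 2 in the other 11 fits. The count that fell became 0 in 4 of 12 fits of the FBXL5ΔDC response (without FBXL5ΔDC replicate 1 or 2 at either time) and in 7 of 12 fits of the control response. Fits of the groups compared alone gave 1 that rose and 0 that fell in control livers, and 2 that fell in FBXL5ΔDC livers. The monocyte sum was mostly Fn1, a gene that hepatocytes express strongly. The monocyte receptor gene Ccr2, named after its values were seen, averaged 0.258 ± 0.148 CPM in treated FBXL5ΔDC livers and 1.04 ± 0.632 CPM in treated control livers. Of 12 sinusoidal endothelial markers, 10 rose in FBXL5ΔDC livers and 3 (Stab1, Stab2 and Mrc1) were higher in FBXL5ΔDC than in control livers at 6 h, and their sum was 439 to 557 CPM against 238 to 374 CPM. At 6 h, 1.35% of all tested genes were higher in FBXL5ΔDC livers. Without control replicate 3 at 6 h the count of 3 became 9, in a fit where 1873 of 18464 tested genes were higher. The count of 3 became 0 without control replicate 1 or 2 or FBXL5ΔDC replicate 3 at 6 h, and in a fit of the groups compared alone. DESeq2 gave 7, where it called 730 of 17585 tested genes higher. Stab1 overlaps Nt5dc2 on the other strand, and the sources used here do not say whether counting used strand. The part of these cells in the Irf8 difference was not tested.

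Batf3 (ENSMUSG00000026630.9, chromosome 1 from 191097847 to 191108945), the partner factor of cDC1 development, had 0.860, 0.705 and 2.24 CPM in treated FBXL5ΔDC livers and 0.452, 0.791 and 1.31 CPM in treated control livers. Untreated FBXL5ΔDC livers had 0.657, 0.279 and 0.0894 CPM and untreated control livers 0.358, 0.955 and 0.416 CPM. The treated FBXL5ΔDC libraries all lay above the untreated ones of that genotype, as did those of 24.2% of tested genes, while the other pairs of groups overlapped. The log2 difference by 6 h in FBXL5ΔDC livers was 1.88 (SE 0.74) and missed the threshold (edgeR adjusted p = 0.0743). DESeq2 called it (adjusted p = 0.0368), as did edgeR without FBXL5ΔDC replicate 1 at 0 h (adjusted p = 0.0350), with a range of 0.0350 to 0.300 over the alternatives. In control livers the log2 difference by 6 h was 0.56 (SE 0.72, edgeR adjusted p = 0.713).

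Xcr1 (ENSMUSG00000060509.5, chromosome 9 from 123852315 to 123862029), the cDC1 receptor for the chemokine XCL1, had 0 counts in all 3 treated FBXL5ΔDC livers and 3, 49 and 0 counts in treated control livers. Untreated FBXL5ΔDC livers had 11, 22 and 11 counts and untreated control livers 23, 15 and 0. Only the comparison of treated with untreated FBXL5ΔDC livers gave groups without overlap, as it did in the same direction for 24.5% of tested genes. Set against the floor of 12 counts per library, the treated FBXL5ΔDC mean was at least 1.15-fold lower than that of untreated FBXL5ΔDC livers. That untreated mean of 14.7 counts passed the floor only through the library with 22 counts, as the libraries with 11 were under it. No bound is given against treated control livers, whose mean rests on the library with 49 counts. Neither difference passed in edgeR (adjusted p = 0.0637 and 0.136). DESeq2 called both (adjusted p = 0.0167 and 0.0426), and edgeR called both without control replicate 3 at 6 h (adjusted p = 0.0303 and 0.0337). Between genotypes at 6 h, those fits called 1390 of 17585 and 2376 of 18464 tested genes lower. Over all alternatives the adjusted p ran from 0.0167 to 0.128 for the first and from 0.0337 to 0.485 for the second.

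Clec9a (ENSMUSG00000046080.17, chromosome 6 from 129408862 to 129424763), a C-type lectin that binds actin exposed by dead cells, did not pass in any comparison. It had 1.47, 0.492 and 1.77 CPM in treated FBXL5ΔDC livers, 0.903, 1.97 and 1.29 CPM in treated control livers, 1.53, 1.44 and 0.685 CPM in untreated FBXL5ΔDC livers and 0.995, 1.58 and 2.51 CPM in untreated control livers. All groups overlapped. By 6 h the log2 difference was 0.03 in FBXL5ΔDC livers (95% interval −1.11 to 1.18) and −0.29 in control livers (−1.43 to 0.85). Its exons share 184 bases with those of Clec1b on the same strand, and 4.02% of its 50-base stretches occur in Clec1b transcripts. Clec1b, which encodes the platelet receptor CLEC-2, had 305 to 613 counts per library, above Clec9a in each group, so counts may be wrongly divided between these neighbours.

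Zbtb46 (ENSMUSG00000027583.13, chromosome 2 from 181387762 to 181459426) was the steadiest of the detected markers. It had 2.69, 4.30 and 3.80 CPM in treated FBXL5ΔDC livers, 3.41, 3.62 and 2.63 CPM in treated control livers, 3.70, 3.47 and 3.52 CPM in untreated FBXL5ΔDC livers and 4.14, 4.89 and 3.51 CPM in untreated control livers. Its log2 differences were 0.01 (95% interval −0.52 to 0.55) by 6 h in FBXL5ΔDC livers, −0.37 (−0.91 to 0.16) by 6 h in control livers, −0.23 (−0.76 to 0.30) between genotypes at 0 h and 0.16 (−0.38 to 0.69) at 6 h. These intervals lie within 1 log2 unit of 0, but that of the difference of the responses does not (log2 0.39, 95% interval −0.37 to 1.14). The edgeR adjusted p was 0.396 or above in each.

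Itgax (ENSMUSG00000030789.9, chromosome 7 from 128129547 to 128150657), which marks the cells meant to make Cre, had 38, 31 and 10 counts in treated FBXL5ΔDC livers and 31, 47 and 9 in treated control livers. Untreated FBXL5ΔDC livers had 0, 5 and 18 counts and untreated control livers 8, 27 and 0. Treated means were above the floor and untreated means below it in both genotypes, but the groups overlapped. The log2 difference by 6 h was 1.85 in FBXL5ΔDC livers (95% interval −1.19 to 4.88, edgeR adjusted p = 0.359) and 1.23 in control livers (−1.73 to 4.19, edgeR adjusted p = 0.658). Of its 50-base stretches, 8.02% occur in Itgad, a neighbouring integrin gene with at most 19 counts in a library. Fbxl5 itself averaged 18.6 ± 5.25 CPM in FBXL5ΔDC and 15.8 ± 3.01 CPM in control livers at 6 h, and 17.2 ± 5.99 CPM and 20.1 ± 2.27 CPM at 0 h, and no difference between genotypes was called, so the deletion could not be read from whole liver.

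Siglech (chromosome 7 from 55768178 to 55778925), the plasmacytoid marker, had 0, 15 and 23 counts in treated FBXL5ΔDC livers, 4, 20 and 19 in treated control livers, 4, 15 and 10 in untreated FBXL5ΔDC livers and 22, 7 and 17 in untreated control livers. All groups overlapped, and no difference passed (lowest edgeR adjusted p = 0.824). Flt3 (chromosome 5 from 147330741 to 147400489) had 19, 0 and 14 counts in treated FBXL5ΔDC livers, 0, 31 and 4 in treated control livers, 0, 0 and 4 in untreated FBXL5ΔDC livers and 15, 17 and 0 in untreated control livers. No difference of Flt3 passed (lowest edgeR adjusted p = 0.322), and none was detectable at this depth.

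The cDC2 markers were the least detected. Irf4 (chromosome 13 from 30749226 to 30766976) had 8, 0 and 16 counts in treated FBXL5ΔDC livers, 4, 0 and 0 in treated control livers, 0 in all untreated FBXL5ΔDC livers and 0, 4 and 4 in untreated control livers, and it did not pass the filter on low counts, so it has no test. Cd209a (chromosome 8 from 3743397 to 3748984) had 4, 0 and 19 counts in treated FBXL5ΔDC livers, 0, 18 and 0 in treated control livers, 21, 0 and 0 in untreated FBXL5ΔDC livers and 0 in all untreated control livers. No difference of Cd209a passed (lowest edgeR adjusted p = 0.317). None of its 50-base stretches occurs in another gene's transcripts. The 7 Cd209 genes together reached 0.574 to 1.24 CPM in treated FBXL5ΔDC livers, 0.457 to 0.503 CPM in treated control livers, 0.456 to 0.983 CPM in untreated FBXL5ΔDC livers and 0.416 to 0.901 CPM in untreated control livers, and 5 of them averaged under 12 counts over the 12 libraries.

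Wider dendritic cell lists of 12 genes each, which other liver cells share in part, were read in the same fit. Among 10 tested genes linked to cDC1, 4 rose and 1 fell by 6 h in FBXL5ΔDC livers (median log2 0.30, against 0.02 over all tested genes). Of all tested genes, 15.0% rose and 15.1% fell in that response, and 6.36% rose and 4.20% fell in the control response. Rab7b, a small GTPase of late endosomes, had 1.65 ± 0.480 CPM in treated and 0.219 ± 0.114 CPM in untreated FBXL5ΔDC livers (log2 2.90, edgeR adjusted p = 0.00305). The interferon-inducible gene Ifi205 had 2.06 ± 0.240 CPM in treated and 0.438 ± 0.131 CPM in untreated FBXL5ΔDC livers (log2 2.23, edgeR adjusted p = 0.00508). Itgae, the CD103 integrin chain of tissue cDC1 and T cells, fell to 1.33 counts per library in treated FBXL5ΔDC livers, against 28.7 in untreated ones (edgeR adjusted p = 0.0197). The fall of Itgae was not called when FBXL5ΔDC replicate 2 or 3 at either time was left out, or when counts were divided by 4. In control livers 1 of the 10 rose, Cd24a (log2 1.76, edgeR adjusted p = 0.0310). That count was 0 without control replicate 2 or 3 at 0 h or control replicate 2 at 6 h. It was also 0 in a fit of the control groups alone.

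Of 9 tested genes linked to cDC2, 3 rose and 0 fell in FBXL5ΔDC livers (median log2 0.60): Esam, an adhesion molecule also of endothelium (log2 2.21, edgeR adjusted p = 0.00225), the NF-κB subunit gene Relb (log2 1.40, edgeR adjusted p = 0.00682) and the receptor gene Notch2 (log2 0.91, edgeR adjusted p = 0.00224). Over all tested genes, 15.0% rose in FBXL5ΔDC livers, while 6.36% rose and 4.20% fell in control livers. Notch2 alone of the 9 rose in control livers (log2 0.66, edgeR adjusted p = 0.0322). That call was lost without any 1 of the 3 untreated control libraries, FBXL5ΔDC replicate 3 at 0 h or control replicate 3 at 6 h. It was also lost in a fit of the control groups alone. Of 9 tested plasmacytoid genes, 0 were called by edgeR in either response with all libraries. DESeq2 called 1 higher and 1 lower in FBXL5ΔDC livers and 1 higher in control livers. edgeR called 1 higher in FBXL5ΔDC livers in a fit of their groups alone, and 1 higher in control livers with counts divided by 4. With 1 library left out, it called 1 lower without FBXL5ΔDC replicate 2 at 0 h, 1 higher without control replicate 3 at 6 h and 2 lower without FBXL5ΔDC replicate 2 at 6 h in FBXL5ΔDC livers. In control livers it called 1 lower without control replicate 3 and 1 higher without FBXL5ΔDC replicate 1 at 6 h. Of 10 tested genes of mature dendritic cells, 0 were called in FBXL5ΔDC livers by edgeR with all libraries, 1 by DESeq2 and 1 by edgeR without FBXL5ΔDC replicate 1 at 0 h, and 1 fell in control livers, Il15ra (log2 −1.01, edgeR adjusted p = 0.00600), a call lost in a fit of the control groups alone.

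Genes of dendritic cell growth and development moved in both directions. Flt3l, the ligand of FLT3, had 1.67 ± 0.218 CPM in treated and 5.55 ± 0.177 CPM in untreated FBXL5ΔDC livers (log2 −1.73, SE 0.33, edgeR adjusted p = 0.00228). In control livers it had 2.78 ± 1.41 CPM when treated and 4.25 ± 0.892 CPM when untreated and was not called. Of 10 tested genes, 4 rose and 1 fell in FBXL5ΔDC livers. Among all tested genes, 15.0% rose and 15.1% fell in that response, and 6.36% rose and 4.20% fell in the control response. At 6 h, 1.35% were higher and 4.51% lower in FBXL5ΔDC than in control livers. Csf2rb, a receptor chain for GM-CSF (log2 1.45, edgeR adjusted p = 0.0118), and the transcription factor gene Zeb2 (log2 1.30, edgeR adjusted p = 0.00165) were among the 4, which became 2 without FBXL5ΔDC replicate 3 at 6 h. In control livers Nfil3, which is needed for cDC1 development and also follows the circadian clock, rose (log2 1.24, edgeR adjusted p = 0.0154) and the repressor gene Bcl6 fell (log2 −1.89, edgeR adjusted p = 0.0295). Both calls were lost without control replicate 2 or 3 at 0 h and in a fit of the control groups alone. That of Bcl6 was also lost without control replicate 1 or 3 at 6 h. At 6 h Nfil3 had 32.2 ± 8.95 CPM in FBXL5ΔDC livers and 72.4 ± 23.1 CPM in control livers (log2 −1.17, edgeR adjusted p = 0.0306), and Zeb2 had 12.4 to 13.9 CPM in FBXL5ΔDC livers and 6.13 to 8.82 CPM in control livers (log2 0.86, edgeR adjusted p = 0.0498). With 1 library left out, the count of 1 higher gene became 0 in 9 of 12 fits and 2 without control replicate 3 at 6 h, and the count of 1 lower gene became 0 in 6 of 12 fits and 2 without that library. In a fit of the groups compared alone, both counts were 0, while DESeq2 called 2 higher. Zeb2 overlaps the antisense gene Zeb2os and Flt3l overlaps Gm45713, so the counts of both pairs are uncertain. Zeb2 was not called at 6 h, nor Bcl6 in control livers, without the filter on low counts. In the same comparison the other 4 wider lists had 0 genes called by edgeR with all libraries, while DESeq2 called 1 higher and 1 lower cDC1 gene and 1 lower plasmacytoid gene. Without control replicate 3 at 6 h, edgeR called 2 higher cDC1 genes, 2 higher and 1 lower cDC2 genes, 1 higher and 1 lower plasmacytoid gene and 1 lower gene of mature cells. Over all 18464 genes tested without that library, 1873 were higher and 2376 lower. edgeR called 1 lower cDC1 gene without FBXL5ΔDC replicate 1 at 6 h, and 1 higher cDC1 and 1 lower plasmacytoid gene with counts divided by 4. At 0 h none of these 5 wider lists had a called gene by edgeR or DESeq2.

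Class II antigen presentation genes, which dendritic cells share with macrophages and B cells, were not called in any comparison (0 of 9 tested by edgeR), though 2 rose in a fit of the FBXL5ΔDC groups alone and 1 without control replicate 1 at 6 h. Their sum was 75.9 to 98.5 CPM in treated FBXL5ΔDC livers, 28.5 to 84.7 CPM in treated control livers, 36.9 to 68.2 CPM in untreated FBXL5ΔDC livers and 46.5 to 57.5 CPM in untreated control livers.

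The genes most like the detected markers were read from deviations of log2 CPM from each group mean over the 12 libraries, as a description. For Irf8 these were Gm6525 (Pearson r = 0.93), the prostacyclin receptor gene Ptgir (0.90) and Gm47761 (0.89). For Zbtb46 they were Gm20522 (0.95), 1110020A21Rik (0.94) and Ckap2 (0.93). For Clec9a they were Eps8l1 (0.93), Tlr11 (0.91) and Rad1 (0.91), of which Tlr11 averaged under 12 counts in all 4 groups. These points come from 3 libraries in each of the 4 groups, and no test was made of them. Each set of 3 was picked for the highest r among the 17585 tested genes, so high values follow in part from the picking.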

How the data were processed

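RNA from whole liver was sequenced in 12 libraries, 3 in each of 4 groups. Per the submitters' processing notes the tools were Trim Galore 0.6.6 and HISAT2 2.2.1 and the build mm10, while the sources used here name no counting program, annotation or strand setting. The deposited table holds estimated counts per gene, whole numbers whose low values pile up at multiples of 4 (up to 40, each library held 1.38 to 1.56 times as many values at multiples of 4 as at the mean of their 2 neighbours), so they are not treated as single fragments. They entered the count test unchanged, as a whole-number rounding of estimated counts. The design had assumed read counts.

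edgeR 4.0.16 (R 4.3.3) fitted all 4 groups by quasi-likelihood with TMM scaling after its filter on low counts, which 17585 of 55401 genes and 9 of the 10 markers passed. p-values were adjusted by Benjamini and Hochberg over all tested genes, and a call is an adjusted p below 0.05. The comparisons were each response to acetaminophen, each genotype difference and the difference of the responses. DESeq2 1.42.0, other scalings, filters and subsets of libraries were alternatives. The fit was also run on simulated counts, with the same spread set for every gene and changes set in the control response only. That run does not measure how single libraries move the calls. Intervals are 95% intervals of the fitted log2 difference. Coordinates are from GENCODE on GRCm38, to which 98.1% of the gene identifiers matched. Promoters are from RefSeq, and a further motif searched in them is not reported here.

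The markers and the wider lists were chosen with earlier results of these data known. Genes named are the 10 markers, Fbxl5, up to 3 called genes of largest change in a wider list and comparison, the most abundant genes of a context list, the other Cd209 genes and the 3 genes most like each of Irf8, Zbtb46 and Clec9a, with exceptions named as such. Replicate numbers did not pair the libraries.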

Additional observations from a re-analysis of the deposited data

How the results depend on the processing

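Irf8 kept its direction in all 5 comparisons under all alternatives. The number of the 10 markers called was 1 in the FBXL5ΔDC response, 1 in the control response, 1 between genotypes at 6 h and 0 in the other comparisons. DESeq2 gave 3 in the FBXL5ΔDC response, 2 between genotypes at 6 h and 1 for the difference of responses. Fitting only the groups compared gave 2 in the FBXL5ΔDC response, and 0 both in the control response and between genotypes at 6 h. Leaving out 1 library gave 1 to 2, 0 to 1 and 1 to 2 in those comparisons, and 0 to 1 for the difference of responses. With a floor of 3 counts, 6 of 40 group means lay under it, in place of 16. The cause of these shifts was not tested.

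Among the markers and comparisons recomputed (not Flt3, Cd209a or, at 0 h, Itgax), the directions that turned were of differences that no fit called. Upper quartile scaling gave −0.016 for Zbtb46 in the FBXL5ΔDC response. With 1 library left out, log2 differences in the FBXL5ΔDC response ran from −0.30 to 0.42 for Clec9a, −0.13 to 0.18 for Zbtb46 and −0.22 to 1.04 for Siglech. In the control response they ran from −0.63 to 0.11 for Clec9a, −0.45 to 0.37 for Siglech and −2.99 to 1.06 for Xcr1. Between genotypes they ran from −0.24 to 1.06 for Xcr1 at 0 h, and at 6 h from −0.48 to 0.24 for Clec9a, −0.66 to 0.59 for Siglech, −0.25 to 0.62 for Itgax and −0.11 to 1.02 for Batf3. For the difference of responses they ran from −0.075 to 0.72 for Clec9a, −0.13 to 1.12 for Siglech and −0.92 to 2.21 for Itgax.

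Same-numbered libraries did not deviate together (18 pairs, r from −0.0614 to 0.0441). With the replicate number as a block no marker call changed. Among the wider lists, the cDC2 and Kupffer counts in the control response became 0 in place of 1, those at 6 h between genotypes became 0 in place of 1 for higher development genes (Zeb2) and 1 in place of 2 for Kupffer genes, and the monocyte genes that fell became 0 in place of 1 in both responses. The block turned the log2 difference to −0.013 for Clec9a and −0.00042 for Zbtb46 in the FBXL5ΔDC response, −0.37 for Xcr1 in the control response, −0.18 for Siglech between genotypes at 6 h and −0.088 for Itgax in the difference of responses.

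Among all genes, 2638 were higher and 2648 lower in the FBXL5ΔDC response, against 3124 and 3018 by DESeq2 and 3016 and 2987 with only its groups fitted. Between genotypes at 6 h 238 were higher and 793 lower, against 730 and 1390 by DESeq2 and 0 and 6 with only those groups fitted. The control response had 1118 and 739, against 1687 and 1196 by DESeq2 and 235 and 167 with only its groups. The difference of responses had 6 and 45, against 213 and 476 by DESeq2, 2 and 18 with upper quartile scaling and 4 and 24 with the replicate block. Leaving out control replicate 3 at 6 h moved these counts most. Of 18464 genes then tested, 1873 were higher and 2376 lower between genotypes at 6 h, and the difference of responses had 1103 and 1430. Counts near the floor limit 6 of the 10 markers.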
